A study of Homo sapiens with 9 samples.

Results

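The RNAs described here are those read from the mitochondrial genome, a small circle of DNA kept in the mitochondrion apart from the nuclear chromosomes. They were taken as the rows of the deposited count table whose Ensembl identifier maps, in GENCODE release 29, to a symbol starting with MT-. That rule used names only and no measured value, and it found 37 of the 60675 rows: 13 mRNAs, 2 rRNAs and 22 tRNAs. The table holds bulk RNA sequencing of the human melanoma cell line SK-MEL-5, which carries mutated BRAF, a kinase of the MAP kinase pathway. Its 3 groups, SC01, SC07 and SC10, are subclones that were each grown from 1 parental cell by limiting dilution without drug, and each has 3 libraries. No library was drug-treated. The subclones were picked by an early test of their response to the BRAF inhibitor PLX-4720, and the labels do not give the outcome for any of them. Each group is 1 clone, so that a difference between groups is a difference between these clones, and any batch that follows the clones cannot be told apart from them. Nothing in the labels says whether separate cultures stand behind the 3 libraries of each clone, and the p-values then measure only the spread between these libraries.

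Both strands of mitochondrial DNA are transcribed from promoters in the control region into long RNAs that carry many genes each. Most genes lie between tRNAs, and enzymes that cut at the ends of each tRNA release the rRNAs and mRNAs from the long precursor. Since all genes of 1 strand start out in shared precursors, differences in their levels arise largely after transcription, through processing and decay of the separate RNAs. The heavy strand is the template of both rRNAs, 12 of the 13 mRNAs and 14 tRNAs, and the light strand is the template of MT-ND6 and of 8 tRNAs. The mRNAs encode subunits of the respiratory chain and of ATP synthase, the rRNAs form the core of the mitochondrial ribosome, and the tRNAs serve its translation.

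The libraries held 30224066 to 39454087 counts, and levels are given as counts per 1000000 counts (CPM), with library sizes scaled by edgeR's TMM factors. The 3 clones formed 3 separate groups of libraries, while replicate 3 of SC10 stood apart from replicates 1 and 2 on the third principal component. Of 8 melanocytic markers, 7 were above 1 CPM and SOX10 was listed at 0 in every library. The summed melanocytic level was 10875 to 11532 CPM in SC01, 24452 to 24962 in SC07 and 15283 to 15495 in SC10. The 6 fibroblast markers summed to 132 to 137 CPM in SC01, 428 to 489.7 in SC07 and 336 to 371 in SC10, nearly all of it LUM, while COL1A2 stayed near 0. The highest immune sums of SC01, SC07 and SC10 were 0.494, 3.69 and 1.09 CPM, and the highest endothelial sums 3.10, 10.3 and 5.37 CPM. The 5 keratinocyte markers summed to 21.8 to 24.2 CPM in SC01, 22.2 to 22.3 in SC07 and 23.3 to 27.2 in SC10, and KRT1 was at 0 throughout. The melanocytic, fibroblast, immune and endothelial sums were lowest in SC01, as the mitochondrial RNAs below were. Single markers went the other way, with mean CPM in the same order of 2394, 1212 and 702 for TYRP1, 150.4, 105 and 133 for S100B and 2.04, 1.20 and 1.15 for COL1A1. Near 0 CPM, COL1A2, CD14 and CD3E also had their highest means in SC01. Most immune counts were of PTPRC, and most endothelial counts were of VWF. The part of these markers in the results was not tested.

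The sequences of 5 tRNAs are shown because these were the tRNAs with the clearest clone differences on both strands, and the ends of 2 mRNAs are shown because they overlap the next gene, which limits how reads can be assigned. They are GENCODE 29 transcript sequences on GRCh38, written as DNA from 5′ to 3′ in the sense of the RNA. In the tRNAs the capitals mark the anticodon, the bases that pair with the codon. MT-TP (proline, minus strand, chrM:15956-16023), MT-TE (glutamate, minus strand, chrM:14674-14742), MT-TC (cysteine, minus strand, chrM:5761-5826) and MT-TY (tyrosine, minus strand, chrM:5826-5891) are read from the light strand. MT-TL1 (leucine, plus strand, chrM:3230-3304) is read from the heavy strand and lies between MT-RNR2 and MT-ND1.
MT-TP: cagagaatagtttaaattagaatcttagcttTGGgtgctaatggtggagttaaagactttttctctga
MT-TE: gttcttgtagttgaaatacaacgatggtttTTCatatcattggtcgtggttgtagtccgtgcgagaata
MT-TC: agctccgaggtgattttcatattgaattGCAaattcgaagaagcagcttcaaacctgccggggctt
MT-TY: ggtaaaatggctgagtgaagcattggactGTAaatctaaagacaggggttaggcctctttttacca
MT-TL1: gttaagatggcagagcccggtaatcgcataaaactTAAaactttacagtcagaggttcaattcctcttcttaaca
In the mRNA ends the capitals mark the bases that belong to the next gene as well, namely the first 46 bases of MT-ATP6 in MT-ATP8 (plus strand, chrM:8503-8572) and the first 7 bases of MT-ND4 in MT-ND4L (plus strand, chrM:10727-10766).
MT-ATP8 end: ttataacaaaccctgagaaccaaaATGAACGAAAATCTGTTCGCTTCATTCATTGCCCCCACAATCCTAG
MT-ND4L end: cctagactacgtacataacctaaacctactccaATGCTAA
MT-TC and MT-TY share 1 base, so they too lie end to end in 1 precursor.

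Mitochondrial RNA took a smaller share of the counts in SC01 than in its sister clones in all 3 classes. The mRNAs took 6.42% ± 0.058 (SD, n = 3) of all counts in SC01, 8.67% ± 0.25 in SC07 and 9.69% ± 0.24 in SC10. By library these shares were 6.35%, 6.45% and 6.46% in SC01, 8.52%, 8.96% and 8.53% in SC07 and 9.77%, 9.89% and 9.42% in SC10, so that no 2 clones overlapped and SC10 was highest. The rRNA share was 0.521%, 0.533% and 0.551% in SC01, 0.976%, 0.996% and 1.03% in SC07 and 1.03%, 1.07% and 1.09% in SC10, with the same order of the clones. SC07 and SC10 came close without overlap, at 1.029% in the highest SC07 library and 1.033% in the lowest SC10 library. The tRNAs were a far smaller part of the libraries, at 0.0129%, 0.0130% and 0.0157% in SC01, 0.0287%, 0.0310% and 0.0287% in SC07 and 0.0339%, 0.0331% and 0.0343% in SC10, again without overlap. In bulk RNA, fewer mitochondrial genomes or less mitochondrial mass per cell and less RNA per genome cannot be told apart, nor can fewer cells of a type from less RNA per cell.

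**Figure D1:**
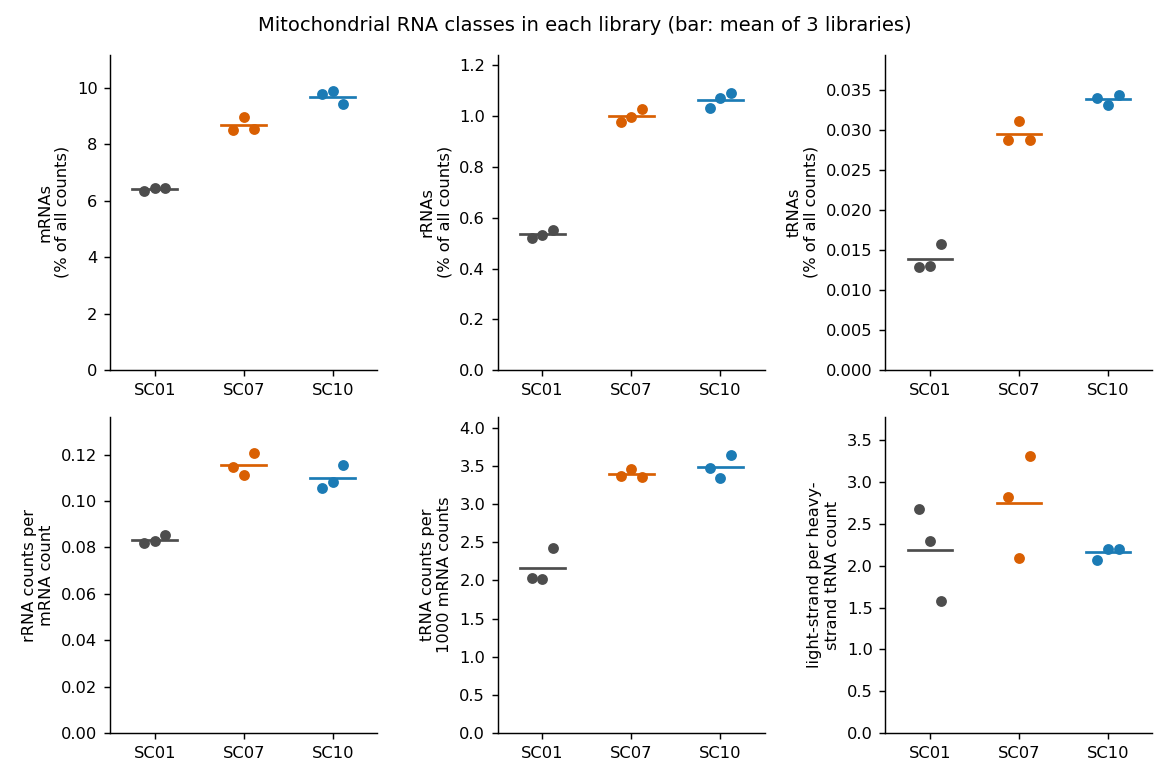
Mitochondrial RNA by class in each of the 9 libraries. The upper panels give the percent of all counts in mRNAs, rRNAs and tRNAs, and the lower panels give ratios between classes and between strands; points are libraries and bars are clone means. The 3 SC01 libraries sit below all others in the first 5 panels, while the light-to-heavy tRNA ratio overlaps between clones.

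The classes did not differ by the same factor. The rRNA counts per mRNA count were 0.0820, 0.0826 and 0.0854 in SC01, 0.115, 0.111 and 0.121 in SC07 and 0.106, 0.108 and 0.116 in SC10, lower in SC01 than in either other clone, while SC07 and SC10 overlapped. The tRNA counts per 1000 mRNA counts were 2.03, 2.02 and 2.43 in SC01, 3.36, 3.46 and 3.36 in SC07 and 3.47, 3.35 and 3.65 in SC10, with the same arrangement of the clones. These sums carry no test, since they are ratios of the members' totals.

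All 13 mRNAs passed the filter on low counts, and all 13 were higher in SC07 than in SC01 and in SC10 than in SC01 by edgeR's quasi-likelihood test at an adjusted p under 0.05. Over all 18009 genes tested, 31.5% were higher and 30.5% lower in SC07 than in SC01, and 33.5% were higher and 32.4% lower in SC10, so that the clones differed widely beyond the mitochondrial genome. The 2 comparisons share the SC01 libraries. The median log2 change of the 13 mRNAs was 0.58 in SC07 and 0.69 in SC10, beside medians of -0.010 and -0.013 over all genes. All 13 had libraries that did not overlap with those of SC01 in either comparison, against 33.8% of all genes with SC07 libraries above those of SC01 and 34.6% with SC10 libraries above them. Scaling by library totals alone moved the median of all genes to -0.12 in both comparisons and the share of higher among called genes from 50.8% to 40.6% in SC07 and from 50.8% to 41.6% in SC10. The mRNA medians were then 0.47 and 0.58, and the count of mRNAs called higher was 13 in both.

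Complex I takes electrons from NADH, and 7 of its subunits are encoded in the mitochondrial genome. MT-ND1, a membrane subunit near the ubiquinone site, had the largest change of any mRNA against SC01. Its level was 1759, 1801 and 1706 CPM in SC01, 3630.3, 3706 and 3665 in SC07 and 4023, 4181 and 4015 in SC10. The SC01 libraries were far below the others, and SC07 was 2.09-fold above SC01 (log2 change 1.06, SE 0.040, adjusted p = 6.52e-19) and SC10 2.32-fold above it (log2 change 1.21, SE 0.040, adjusted p = 3.70e-20). MT-ND2, the next mRNA along the heavy-strand precursor and a membrane subunit too, was at 3387, 3447 and 3393 CPM in SC01, 4735, 4877 and 4802 in SC07 and 5524, 5559 and 5049 in SC10. Its change was smaller, at 0.50 in SC07 and 0.66 in SC10, both with an SE of 0.042. Per kb of gene, MT-ND1 stood at 0.561 ± 0.012 (SD, n = 3) of the level of MT-ND2 in SC01, 0.832 ± 0.0037 in SC07 and 0.827 ± 0.037 in SC10, so that the ratio was lower in each SC01 library than in any other.

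MT-ND3, a small membrane subunit of complex I, was at 971, 988 and 1052 CPM in SC01, 1874, 1846 and 1943 in SC07 and 1765, 1854 and 2029 in SC10. It was 1.88-fold higher in SC07 (adjusted p = 1.08e-15) and 1.88-fold higher in SC10 (adjusted p = 1.11e-15) than in SC01, while SC07 and SC10 overlapped. MT-ND4, one of the proton-pumping subunits, was at 12037, 12190.4 and 11426 CPM in SC01, 17910.0, 18358 and 18241 in SC07 and 20171, 20378 and 18236 in SC10, with log2 changes of 0.61 and 0.72. MT-ND4L, whose reading frame overlaps that of MT-ND4 on 1 bicistronic mRNA, was at 1889, 1885 and 1772 CPM in SC01, 2763, 2867 and 2828 in SC07 and 3124, 3217 and 2123 in SC10. Replicate 3 of SC10 lay well below its 2 sister libraries here, and so did the per-kb ratio of MT-ND4L to MT-ND4, which was 0.728, 0.717 and 0.720 in SC01, 0.716, 0.724 and 0.719 in SC07 and 0.719, 0.732 and 0.540 in SC10. With that library MT-ND4L showed a log2 difference of 0.00092 between SC10 and SC07 (adjusted p = 0.997), and without it the difference was 0.18 (adjusted p = 2.59e-05). Against SC01, the log2 change of MT-ND4L in SC10 was 0.61 with the library and 0.78 without it.

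MT-ND5, another proton-pumping subunit, was at 1580.4, 1670.4 and 1944 CPM in SC01, 2349, 2897 and 2230.4 in SC07 and 3189, 2934 and 2575 in SC10. Replicate 3 of SC01 and replicate 2 of SC07 were the highest of their clones, and the SE of its change was 0.14, against 0.040 for MT-ND1. Its log2 change was 0.53 in SC07 (adjusted p = 0.0142) and 0.74 in SC10 (adjusted p = 0.00267), and the first was no longer called without replicate 1 of SC01 (adjusted p = 0.0541) or without replicate 2 of SC01 (adjusted p = 0.0530). MT-ND6, the complex I subunit read from the light strand, was at 239, 260.4 and 309.7 CPM in SC01, 417, 501 and 387 in SC07 and 537, 515 and 541 in SC10. It was 1.61-fold higher in SC07 (SE 0.12 on the log2 scale, adjusted p = 0.00227) and 1.97-fold higher in SC10 (SE 0.13, adjusted p = 0.000322), and its libraries in both lay above all 3 of SC01.

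MT-CYB, the heme-bearing core of complex III, was at 6228, 6349.8 and 6197 CPM in SC01, 10314, 10399 and 10676 in SC07 and 10111, 10447 and 9414 in SC10. It was 1.67-fold higher in SC07 and 1.60-fold higher in SC10 than in SC01 (adjusted p = 7.99e-15 and 5.97e-14). SC10 was not above SC07 here (log2 change -0.067, SE 0.042, adjusted p = 0.201).

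Complex IV, which hands electrons to oxygen, has its 3 catalytic core subunits from the mitochondrial genome. MT-CO1, the subunit that holds the site of oxygen reduction, was at 12019, 12680.2 and 13773 CPM in SC01, 16311, 18363 and 15767 in SC07 and 19305, 18676 and 18208 in SC10. Its change against SC01 was among the smallest of the mRNAs, at 0.39 in SC07 and 0.55 in SC10, both with an SE of 0.054. MT-CO2, which takes the electrons from cytochrome c, was at 7300.2, 7594 and 7449.5 CPM in SC01, 10975, 11081 and 11302 in SC07 and 13349, 13702 and 14470.2 in SC10, with log2 changes of 0.58 and 0.89. For MT-CO2 no 2 clones overlapped, and SC10 was 1.24-fold above SC07 (adjusted p = 2.72e-07). MT-CO3, the third core subunit, was at 6391, 6616 and 6880.3 CPM in SC01, 8715, 8851 and 8993 in SC07 and 10307, 10491 and 11212 in SC10, with log2 changes of 0.42 and 0.69 and likewise no overlap.

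MT-ATP6 and MT-ATP8 encode membrane subunits of ATP synthase on 1 mRNA with overlapping frames, as the shared bases above show. MT-ATP6, which forms the proton path, was at 5044, 5112 and 4963 CPM in SC01, 6061, 6155 and 6054 in SC07 and 7672, 7755 and 7619 in SC10. Its SC07 libraries were only 1.21-fold above SC01 (SE 0.038 on the log2 scale, adjusted p = 5.00e-07), the smallest change among the mRNAs, while SC10 was 1.52-fold above SC01 (adjusted p = 6.98e-14). MT-ATP8 was at 1028, 1009 and 965 CPM in SC01, 1236, 1263 and 1239 in SC07 and 1580.3, 1615 and 1405 in SC10, with log2 changes of 0.32 and 0.62. The per-kb ratio of MT-ATP8 to MT-ATP6 was 0.671, 0.649 and 0.639 in SC01, 0.671, 0.675 and 0.673 in SC07 and 0.678, 0.685 and 0.607 in SC10, with SC10 replicate 3 lowest and SC01 overlapping SC10.

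Between the sister clones the mRNAs were closer. In SC10, 8 of 13 were called higher than in SC07 and none lower, beside 24.8% of all genes called higher and 23.0% lower. The 8 were MT-ND1, MT-ND2, MT-ND4, all 3 complex IV mRNAs and both ATP synthase mRNAs. The largest difference was 0.33 for MT-ATP6 (SE 0.038, adjusted p = 3.33e-08), and the median of the 13 was 0.16. SC10 libraries lay above all those of SC07 in 7 of the 13, against 27.4% of all genes, and MT-ND4 and MT-CO1 were called although their libraries overlapped. MT-ND3 differed by -0.0038 (adjusted p = 0.956), MT-ND5 by 0.22 (adjusted p = 0.246) and MT-ND6 by 0.29 (SE 0.12, adjusted p = 0.103), none of which passed the test.

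**Figure D2:**
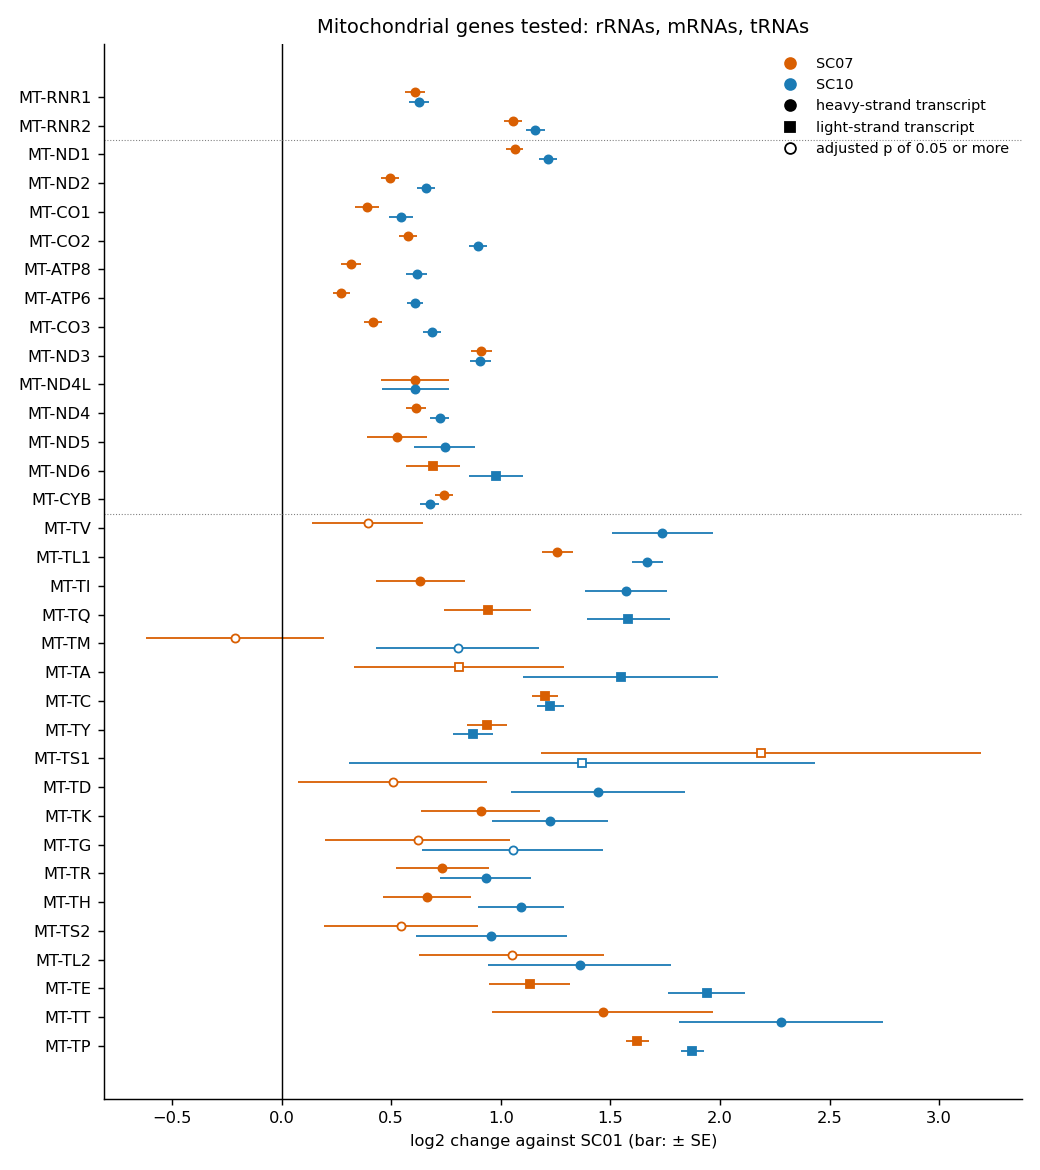
Log2 change against SC01 with its SE for the 34 mitochondrial genes tested, in SC07 (orange) and SC10 (blue). Squares are light-strand transcripts, circles are heavy-strand transcripts and open symbols have an adjusted p of 0.05 or more. The rRNAs and mRNAs all lie to the right of 0 with filled symbols, and the tRNAs spread more widely, with long bars where counts are low.

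Levels of different genes were compared per kb of gene length. MT-CO2 was highest in each clone, at 10889 ± 214 CPM per kb (SD, n = 3) in SC01, 16256 ± 244 in SC07 and 20234 ± 838 in SC10. MT-ND4, MT-CO3 and MT-CO1 followed in that order of means in each clone, and in SC01 their libraries overlapped from each to the next (8624 ± 294, 8456 ± 312 and 8317 ± 574). MT-ND5 was the lowest of the heavy-strand mRNAs in each clone, at 956 ± 105 in SC01, although it lies on the same strand as MT-ND4 before it. MT-ND6 was below it, at 513 ± 69.3 in SC01, 829 ± 113 in SC07 and 1011 ± 26.9 in SC10. The spread of levels along the heavy strand of 1 clone was wider than the difference of any of its mRNAs between clones.

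**Figure D3:**
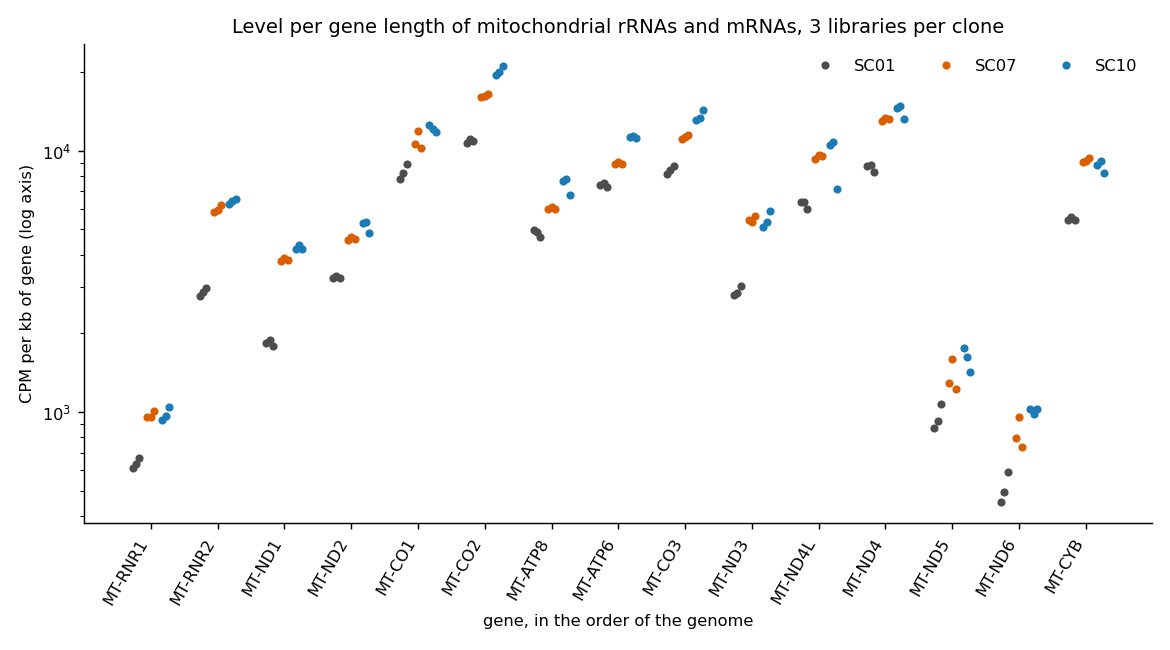
CPM per kb of gene for the 2 rRNAs and 13 mRNAs in the order of the genome, on a log axis, with 1 point per library. SC01 is lowest for each gene, MT-CO2 is highest in each clone, and MT-RNR1, MT-ND5 and MT-ND6 lie lowest.

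Both rRNAs were called higher in SC07 and in SC10 than in SC01, but not by the same amount. MT-RNR2, the rRNA of the large ribosomal subunit, was at 4328, 4484 and 4642 CPM in SC01, 9089, 9216 and 9668 in SC07 and 9745, 10057 and 10209 in SC10. It was 2.08-fold higher in SC07 (log2 SE 0.042, adjusted p = 2.15e-18) and 2.23-fold higher in SC10 (log2 SE 0.042, adjusted p = 2.88e-19) than in SC01, with no overlap. MT-RNR1, the rRNA of the small subunit, which lies before it on the same precursor with MT-TV between them, was at 583, 606 and 637 CPM in SC01, 910.3, 909.5 and 960.4 in SC07 and 893, 925 and 998 in SC10. It was 1.52-fold higher in SC07 (adjusted p = 4.06e-12) and 1.54-fold higher in SC10 (adjusted p = 1.97e-12), and SC07 and SC10 overlapped.

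The per-kb ratio of MT-RNR2 to MT-RNR1 was 4.54, 4.53 and 4.46 in SC01, 6.11, 6.20 and 6.16 in SC07 and 6.68, 6.66 and 6.26 in SC10. No 2 clones overlapped, and SC01 was lowest. SC10 was above SC07 in MT-RNR2 by 0.10 on the log2 scale (SE 0.041, adjusted p = 0.0446), a difference near the threshold that was lost when replicate 1 or 2 of SC07 or replicate 2 of SC10 was left out, when the pair was fitted alone and when no filter on low counts was used. MT-RNR1 differed by 0.018 between these clones (adjusted p = 0.772). Per kb, the mean of MT-RNR1 lay below 12 of the 13 mRNAs in SC01 and SC07 and below all 13 in SC10. Its libraries overlapped those of MT-ND6 in SC07 and in SC10. Ribosomal RNA outnumbers mRNA in mitochondria, and whether these libraries were selected for poly(A) tails or depleted of rRNA is not given in the sources used here, so that the low rRNA values say nothing of its abundance in the cells.

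The 22 tRNAs are short and were thinly covered, with 2 counts in all 9 libraries together for MT-TN and 24158 for MT-TC. Reads on a tRNA gene can come from the uncut precursor as well as from the separate tRNA, and the counts do not tell these apart. The tRNA values below are therefore counts over the genes and do not measure the finished tRNAs in the cells. The filter kept 19. The other 3 were MT-TF, whose counts were 1, 6 and 11 in SC01, 10, 10 and 6 in SC07 and 8, 6 and 6 in SC10, MT-TW, with 3, 1 and 1 in SC01, 5, 11 and 12 in SC07 and 7, 7 and 29 in SC10, and MT-TN, with a single count in SC07 replicate 2 and another in SC10 replicate 1. For scale, 3 counts were 0.0773 to 0.0948 CPM in a library, counting error only. Of the 19, MT-TM, MT-TA, MT-TD and MT-TT did not reach the filter level in each SC01 library and were kept through libraries of the other clones, so that their calls are given apart.

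Of the 15 tRNAs above the filter level in all 9 libraries, 10 were called higher in SC07 than in SC01, beside 31.5% of all genes, and 13 in SC10 than in SC01, beside 33.5%, and none lower. The 9 heavy-strand members of these 15 had 5 called in SC07 and 8 in SC10, and the 6 light-strand members had 5 called in each. Of the 4 others, MT-TT was called higher in SC07, and MT-TA, MT-TD and MT-TT were called higher in SC10. They entered the test through libraries outside SC01, which favours such calls, so that these calls are not used as support. MT-TT, for threonine, had counts of 5, 2 and 6 in SC01, 10, 18 and 10 in SC07 and 19, 20 and 27 in SC10. MT-TM differed by -0.21 in SC07 (SE 0.41, adjusted p = 0.672) and by 0.80 in SC10 (SE 0.37, adjusted p = 0.0589).

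MT-TP, the first gene read from the light-strand promoter, had the largest called change of the tRNAs in SC07. Its level was 27.4, 26.0 and 27.0 CPM in SC01, 79.6, 86.6 and 81.5 in SC07 and 99.5, 93.9 and 101 in SC10. The SC01 libraries lay far below the rest, with 3.08-fold more in SC07 (log2 change 1.62, SE 0.053, adjusted p = 2.29e-20) and 3.66-fold more in SC10 (log2 change 1.87, SE 0.053, adjusted p = 9.44e-22). Per kb, the ratio of MT-TP to MT-ND6, the mRNA of the same strand, was 0.777 ± 0.11 (SD, n = 3) in SC01, 1.48 ± 0.15 in SC07 and 1.43 ± 0.020 in SC10, and SC01 did not overlap the others. MT-TE, next to MT-ND6 on that strand, was at 1.13, 0.948 and 1.26 CPM in SC01, 2.74, 2.24 and 2.36 in SC07 and 3.90, 4.54 and 4.40 in SC10, and its 3 clones did not overlap, with log2 changes of 1.13 in SC07 and 1.94 in SC10 (SE 0.19 and 0.18).

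MT-TC and MT-TY lie side by side further along the light-strand precursor. MT-TC was at 42.1, 40.9 and 40.7 CPM in SC01, 91.1, 87.8 and 106 in SC07 and 92.1, 94.5 and 103 in SC10, with 2.30-fold more in SC07 (adjusted p = 6.85e-15) and 2.34-fold more in SC10 (adjusted p = 4.31e-15). MT-TY was at 16.3, 16.7 and 21.0 CPM in SC01, 35.1, 33.3 and 34.9 in SC07 and 34.2, 35.8 and 28.8 in SC10, with 1.91-fold (adjusted p = 5.50e-08) and 1.83-fold more (adjusted p = 1.27e-07). In both genes SC07 and SC10 overlapped each other and lay above SC01. MT-TQ, for glutamine, was at 0.961, 1.30 and 1.11 CPM in SC01, 2.19, 2.32 and 1.91 in SC07 and 3.79, 2.88 and 3.37 in SC10, and MT-TA, for alanine, at 0.137, 0.316 and 0.180 CPM in SC01, 0.213, 0.541 and 0.328 in SC07 and 0.545, 0.534 and 0.768 in SC10, the first with no overlap between clones and the second at 5 to 26 counts a library.

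For MT-TS1, the serine tRNA next to MT-CO1, the result rested on 1 library. Its counts were 18, 16 and 20 in SC01, 197, 31 and 21 in SC07 and 48, 44 and 52 in SC10, so that replicate 1 of SC07 stood alone. With that library its log2 change was 2.19 in SC07 (SE 1.0, adjusted p = 0.104) and 1.37 in SC10 (SE 1.06, adjusted p = 0.303). Without it the changes were 0.42 (adjusted p = 0.278) and 1.37 (adjusted p = 9.99e-05), and the difference between SC10 and SC07 turned from -0.82 (adjusted p = 0.493) to 0.95 (adjusted p = 0.0105).

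Among the heavy-strand tRNAs, MT-TL1 was the best covered outside the cluster before MT-ND5. Its level was 10.5, 10.8 and 11.7 CPM in SC01, 25.7, 26.3 and 26.9 in SC07 and 34.7, 37.1 and 33.2 in SC10. It was 2.39-fold higher in SC07 (log2 SE 0.070, adjusted p = 4.89e-15) and 3.18-fold higher in SC10 (log2 SE 0.069, adjusted p = 5.91e-18), and no 2 clones overlapped. MT-TV, the valine tRNA between the 2 rRNA genes, was at 0.659, 0.664 and 0.868 CPM in SC01, 0.852, 1.03 and 0.985 in SC07 and 2.72, 2.55 and 2.04 in SC10. Only SC10 stood apart there, with a log2 change of 1.74 (SE 0.23, adjusted p = 1.75e-07), against 0.39 in SC07 (SE 0.26, adjusted p = 0.188), and the direct difference of SC10 from SC07 was 1.34 (SE 0.22, adjusted p = 1.03e-05). MT-TI, for isoleucine, was at 1.26, 1.01 and 0.988 CPM in SC01, 1.67, 1.60 and 1.82 in SC07 and 3.38, 2.88 and 3.49 in SC10, and SC10 was 1.91-fold above SC07 (adjusted p = 6.75e-05), which in turn was 1.55-fold above SC01 (adjusted p = 0.00796).

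The heavy-strand tRNAs MT-TH, MT-TS2 and MT-TL2 lie in a row before MT-ND5, and MT-TG lies before MT-ND3. In these 4 genes replicate 3 of SC01 and replicate 2 of SC07 were the highest of their clones, as they were for MT-ND5, MT-ND6 and MT-CO1. MT-TL2, for leucine, was at 7.99, 11.6 and 21.6 CPM in SC01, 24.8, 40.3 and 19.4 in SC07 and 38.4, 31.6 and 35.3 in SC10, so that the highest SC01 library was 2.70 times the lowest. Its log2 changes were 1.05 in SC07 (SE 0.42, adjusted p = 0.0704) and 1.36 in SC10 (SE 0.42, adjusted p = 0.0261). MT-TH had 0.66 (adjusted p = 0.0112) and 1.09 (adjusted p = 0.000246), MT-TS2 had 0.55 (adjusted p = 0.226) and 0.96 (adjusted p = 0.0460), and MT-TG had 0.62 (adjusted p = 0.250) and 1.05 (adjusted p = 0.0617). The changes of MT-TK and MT-TR were 0.91 and 0.73 in SC07 (adjusted p = 0.00491 and 0.00357) and 1.23 and 0.93 in SC10 (adjusted p = 0.000199 and 0.000293), all called.

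**Figure D4:**
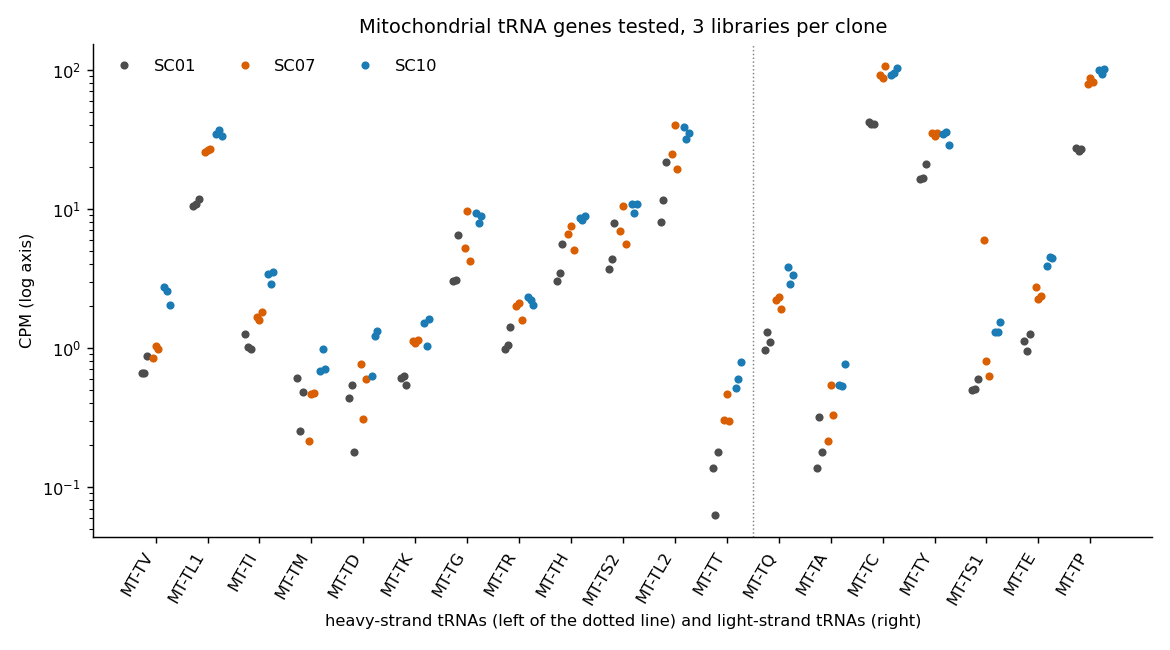
CPM of the 19 tRNAs tested, on a log axis, with heavy-strand tRNAs left of the dotted line and light-strand tRNAs right of it, and 1 point per library. MT-TP, MT-TC and MT-TL1 separate SC01 from the other clones with little spread, MT-TS1 has 1 SC07 library far above the rest, and MT-TG, MT-TS2 and MT-TL2 spread widely within SC01 and SC07.

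Of the 15 tRNAs above the filter level in all 9 libraries, 6 were called higher in SC10 than in SC07 and none lower. Of all genes, 24.8% were called higher and 23.0% lower. The 6 tRNAs were MT-TV, MT-TL1, MT-TI, MT-TQ, MT-TE and MT-TP, with log2 differences from 0.25 for MT-TP to 1.34 for MT-TV. MT-TD, above the filter level in every SC07 and SC10 library, was called higher too, with overlapping libraries. MT-TM reached the filter level in every library of SC10 alone, so that its call is not used. MT-TC differed by 0.024 (SE 0.058, adjusted p = 0.764) and MT-TY by -0.062 (SE 0.086, adjusted p = 0.589).

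To set strands and genes against each other within the mitochondrial genome, the same test was run with the summed counts of the 12 heavy-strand mRNAs of each library as its only scaling. On this scale the median of all genes moved to -0.55 in SC07 and -0.72 in SC10 against SC01, and 11.0% of genes in SC07 and 10.8% in SC10 were called higher, with 66.3% and 71.4% called lower. MT-ND6, the light-strand mRNA, differed by 0.15 in SC07 (SE 0.091, adjusted p = 0.149) and by 0.28 in SC10 (SE 0.091, adjusted p = 0.0133) against SC01, so that only the second passed the test. The direct difference of SC10 from SC07 was 0.13 (SE 0.091, adjusted p = 0.265), beside 15.4% of genes called higher and 39.6% lower. The SC10 call was lost without SC10 replicate 3 (0.24, adjusted p = 0.147), and MT-ND6 in SC07 was called without SC01 replicate 3 (0.25) or SC07 replicate 3 (0.22). Without SC07 replicate 2, the difference of SC10 from SC07 was called as well, at 0.22.

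MT-ND5 and MT-ND6 lie end to end on opposite strands. The per-kb ratio of MT-ND6 to MT-ND5 was 0.521, 0.538 and 0.550 in SC01, 0.614, 0.597 and 0.598 in SC07 and 0.582, 0.606 and 0.724 in SC10, lower in each SC01 library than in any other, with SC07 and SC10 overlapping and SC10 replicate 3 highest. Of the mRNA counts, those of MT-ND6 per heavy-strand count were 0.00400, 0.00425 and 0.00503 in SC01, 0.00481, 0.00553 and 0.00441 in SC07 and 0.00537, 0.00511 and 0.00561 in SC10, where SC01 and SC07 overlapped. Whether strand was used in counting is not given in the sources used here. Without it, reads from MT-ND6 and from heavy-strand RNA antisense to it cannot be told apart, and the same holds for each light-strand tRNA.

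Summed over each strand, the tRNAs overlapped between clones. The light-strand tRNA counts per heavy-strand tRNA count were 2.68, 2.30 and 1.57 in SC01, 2.83, 2.10 and 3.31 in SC07 and 2.07, 2.21 and 2.20 in SC10, with overlap in all 3 comparisons. Single tRNAs did differ from the heavy-strand mRNAs. Of the 15 tRNAs above the filter level in all 9 libraries, 5 were called higher on this scale in SC07 (MT-TL1, MT-TC, MT-TY, MT-TE and MT-TP). In SC10, 8 were called higher (MT-TV, MT-TL1, MT-TI, MT-TQ, MT-TC, MT-TH, MT-TE and MT-TP), and none was lower in either clone. Of all genes, 11.0% in SC07 and 10.8% in SC10 were called higher on this scale, and 66.3% and 71.4% lower. By strand, 1 of 9 heavy-strand and 4 of 6 light-strand tRNAs were called in SC07, and 4 of 9 and 4 of 6 in SC10. In SC07 the SE was 0.061 to 0.080 for MT-TP, MT-TC, MT-TY and the heavy-strand MT-TL1. It was 0.18 to 0.41 for the heavy-strand tRNAs not called, so that the counts do not compare the strands at like precision. MT-TP had 1.08 in SC07 and 1.17 in SC10 (SE 0.061 and 0.061), and MT-TE had 0.59 and 1.24 (SE 0.20 and 0.19).

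**Figure D5:**
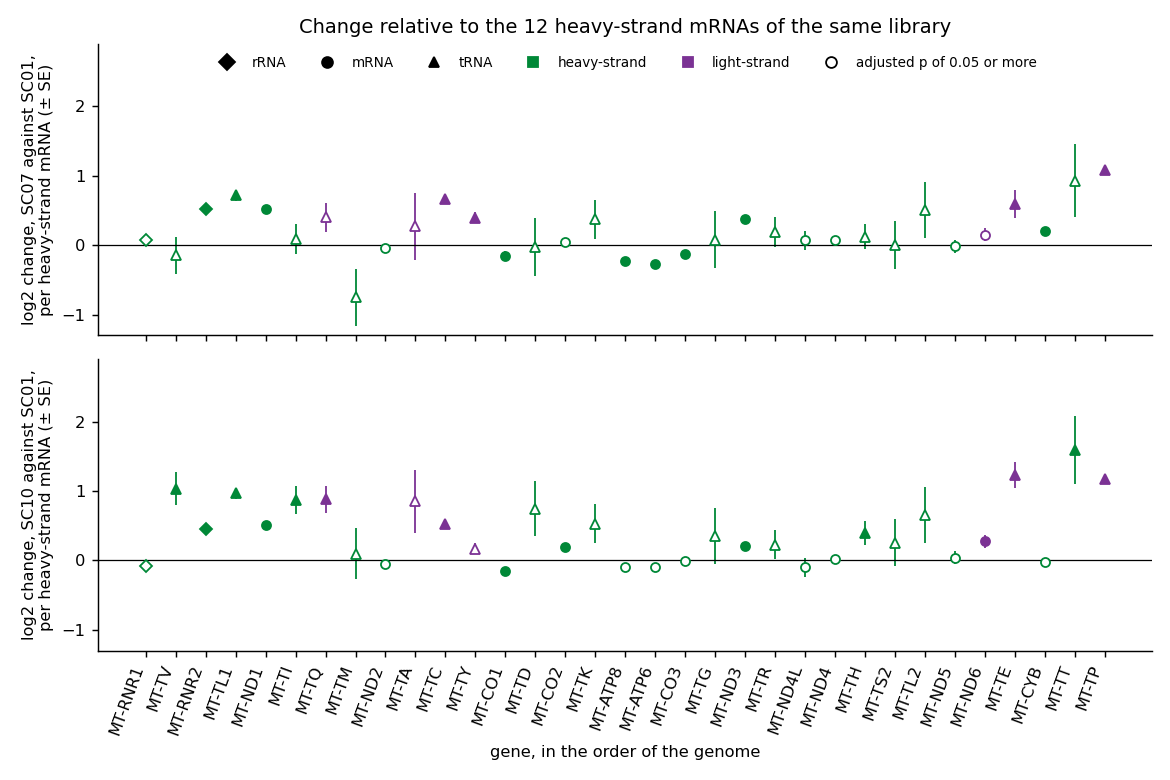
Log2 change against SC01, with SE, scaled to the 12 heavy-strand mRNAs of each library, for SC07 (top) and SC10 (bottom), in the order of the genome. Colours give the strand, shapes the RNA class and open symbols an adjusted p of 0.05 or more; MT-TS1, with SEs near 1, is left out. MT-RNR2, MT-TL1 and MT-ND1 lie above 0 in both panels, MT-TV and MT-TI next to them are called higher in the SC10 panel and not in the SC07 panel, MT-RNR1 and MT-ND2 lie near 0 in both, and MT-TP is high in both.

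MT-RNR2, MT-TL1 and MT-ND1 are neighbours on the heavy strand, and all 3 were above the heavy-strand mRNAs, by 0.52, 0.72 and 0.52 in SC07 and by 0.45, 0.96 and 0.51 in SC10 (adjusted p = 3.34e-11, 1.71e-11 and 7.96e-12 in SC07). The genes next to these 3, MT-TV before and MT-TI after, differed by -0.15 and 0.093 in SC07 (adjusted p = 0.618 and 0.697). In SC10 both were called higher, by 1.03 and 0.87 (adjusted p = 0.000143 and 0.000141). Of the nearest rRNA and mRNA on either side, MT-RNR1 differed by 0.068 in SC07 and -0.076 in SC10 (adjusted p = 0.273 and 0.211), and MT-ND2 by -0.045 and -0.047 (adjusted p = 0.449 and 0.412). MT-ND1 is itself 1 of the 12 genes in the denominator, as are the mRNAs that follow.

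Of the other mRNAs, MT-ND3 was above the 12 genes in both comparisons, by 0.37 in SC07 (adjusted p = 2.84e-07) and 0.21 in SC10 (adjusted p = 0.00158). MT-CYB was above them in SC07, at 0.20 (adjusted p = 0.00101), and stood at -0.030 in SC10 (adjusted p = 0.614), and SC10 was below SC07, at -0.23 on the log2 scale (adjusted p = 0.000387). The ATP synthase mRNAs were below the 12 genes in SC07, MT-ATP6 at -0.27 (adjusted p = 2.35e-05) and MT-ATP8 at -0.22 (adjusted p = 0.000325), with -0.096 and -0.090 in SC10 (adjusted p = 0.0973 and 0.125). MT-CO1 was below them in both, at -0.15 and -0.16 (adjusted p = 0.0189 and 0.0130), with SC07 libraries that overlapped those of SC01. MT-CO3 was below them in SC07 at -0.12, just under the threshold (adjusted p = 0.0498), while MT-CO2 was above them in SC10 by 0.19 (adjusted p = 0.00217). Between SC10 and SC07, the 3 genes called higher on this scale among the mRNAs were MT-CO2, MT-ATP6 and MT-ATP8, and MT-ND3 and MT-CYB were called lower. Of all genes, 15.4% were called higher and 39.6% lower there, and the MT-ND3 libraries of the 2 clones overlapped (adjusted p = 0.0146).

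The nuclear genome holds many old copies of mitochondrial genes, and reads from near-identical copies can be split between copy and gene. The table lists 404 such copies, of which 12 passed the filter, with 9 of them called higher in SC07 and 8 in SC10 than in SC01, beside 31.5% and 33.5% of all genes. MTND2P28 (chr1:629640-630683, GRCh38), an unprocessed pseudogene of MT-ND2, had 22.3 to 23.6 counts per 100 counts of MT-ND2 over the 9 libraries, and its log2 changes were 0.48 in SC07 and 0.65 in SC10, beside 0.50 and 0.66 for the gene. MTATP6P1 had 14.6 to 15.4 per 100 of MT-ATP6 and changes of 0.29 and 0.60, and MTCO3P12 had 9.03 to 10.7 per 100 of MT-CO3 and changes of 0.50 and 0.69. MTCO1P12 had 0.437 to 0.571 per 100 of MT-CO1. These 4 copies lie on chromosome 1, and their counts followed those of their genes across clones. MTND4P12 on chromosome 5 had changes of 0.56 and 0.36 (adjusted p = 0.0419 and 0.161), and MTRNR2L8 on chromosome 11 had 0.57 and 0.47 (adjusted p = 0.00139 and 0.00504). How reads that match both a copy and its gene were counted is not given in the sources used here. How far the levels of MT-ND2, MT-CO1, MT-ATP6 and MT-CO3 are affected is therefore not known, since the counts of a copy need not measure reads that were dropped. The 4 copies lie in the order of their genes, between 629640 and 634922 on chr1. The same doubt may thus hold for genes between MT-ND2 and MT-CO3, among them MT-CO2, MT-ATP8, MT-TC and MT-TY.

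Nuclear genes supply all the proteins that copy, cut, guard and translate mitochondrial RNA. The counts of the nuclear lists that follow stand beside 31.5% of all genes higher and 30.5% lower in SC07 than in SC01, and 33.5% higher and 32.4% lower in SC10. Among 19 genes of mitochondrial RNA stability and decay, 12 were higher and 1 lower in both comparisons with SC01, with medians of 0.28 and 0.35. LRPPRC, which with SLIRP binds and stabilises mitochondrial mRNAs, was at 256, 247 and 248 CPM in SC01, 452, 466 and 448 in SC07 and 475, 468 and 463 in SC10, with log2 changes of 0.86 and 0.90. FASTKD1 and FASTKD2, RNA-binding proteins of the mitochondrial matrix, had larger changes, at 1.80 and 1.73 for the first and 1.35 and 1.36 for the second. FASTKD2 is known to bind MT-RNR2, and its level was 67.5, 64.6 and 68.1 CPM in SC01, 169, 172 and 172 in SC07 and 172, 170.0 and 171 in SC10, with SC01 lowest.

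Of 16 genes of mitochondrial transcription, 8 were higher and 6 lower in SC07, and 7 higher and 5 lower in SC10, with medians of 0.094 and 0.14. PPARGC1A, a nuclear coactivator of mitochondrial biogenesis, was at 30.4, 31.0 and 29.1 CPM in SC01, 473, 469.9 and 461 in SC07 and 451, 456 and 393 in SC10 (log2 changes 3.96 and 3.84), while its relative PPARGC1B was lower than in SC01, at -1.04 in SC07 and -1.10 in SC10. TEFM, the elongation factor of the mitochondrial polymerase, was 0.75 higher in SC07, and MTERF3, a negative regulator of mitochondrial transcription, was 0.84 higher in SC10. Of 20 genes of RNA processing and modification, 8 were higher and 6 lower in SC07, and 8 higher and 5 lower in SC10 (medians 0.015 and 0.0018). TRMT61B, a tRNA and rRNA methyltransferase, had 0.59 and 0.49, and PRORP, the catalytic subunit of the enzyme that cuts at the 5′ ends of tRNAs, had -0.56 in SC10. Of 19 genes of mitochondrial DNA maintenance, 8 were higher and 2 lower in SC07, and 10 higher and 2 lower in SC10 (medians 0.068 and 0.12), with MGME1, a mitochondrial exonuclease, lower in both (-0.41 and -0.50). The RNA data hold no measure of mitochondrial DNA copies.

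The nuclear subunits that join the mitochondrially encoded ones were mostly higher against SC01 too. Of 37 nuclear complex I subunits, 33 were higher in SC07 (median 0.51) and 28 in SC10 (median 0.38), with 0 and 1 lower. In SC07 and SC10, 9 and 8 of 9 were higher in complex III (medians 0.82 and 0.76) and 11 and 9 of 11 in complex IV (medians 0.63 and 0.53). In complex V, 14 and 13 of 15 were higher (medians 0.61 and 0.63), and 1 was lower in SC10. UQCRB of complex III, for one, had 1.14 and 1.33, and ATP5MC3, a c-ring subunit of complex V, had 1.43 and 1.15. Complex II, which has no mitochondrially encoded subunit, had 4 of 4 higher in both, with medians of 0.63 and 0.68. Of 78 mitochondrial ribosomal proteins, 46 were higher and 10 lower in SC07, and 41 higher and 16 lower in SC10 (medians 0.27 and 0.19).

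Of 22 genes of mitochondrial aminoacyl-tRNA synthesis, the enzymes that load these tRNAs, 14 were higher and 6 lower in SC07, and 13 higher and 4 lower in SC10 (medians 0.17 and 0.24). LARS2, which loads MT-TL1 and MT-TL2 with leucine, was at 46.7, 45.7 and 49.2 CPM in SC01, 101, 96.6 and 101 in SC07 and 95.7, 93.0 and 89.0 in SC10, with log2 changes of 1.08 and 0.97. IARS2, the enzyme for MT-TI, had 0.99 and 1.06, and NARS2, the enzyme for MT-TN, had 1.08 and 1.38. GATC, a subunit of the complex that completes MT-TQ loading, was lower in SC10, at -0.90.

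In SC10 against SC07, where the mitochondrial mRNAs differed less, 11 of the 37 nuclear complex I subunits were higher and 12 lower, and 14 of the 78 mitochondrial ribosomal proteins were higher and 30 lower, beside 24.8% higher and 23.0% lower of all genes. Among the protein-coding nuclear genes whose log2 CPM followed the mean of the 13 mRNAs most closely over the 9 libraries were ROBO2, ABCC4 and ATP2A3, with Pearson's r from 0.996 to 0.997. The 9 libraries are 3 clones, and 15.3% of the 13578 genes had an r above 0.9, so that a high r here is common.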

How the data were processed

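Total RNA of 3 untreated subclones was sequenced in 3 libraries each. The authors deposited 1 table of raw read counts per Ensembl gene. Reads were aligned with HISAT2 to GRCh38 and counted with featureCounts, per the submitters' processing notes; versions, strand setting, treatment of multiply mapped reads and library selection were not given there. GENCODE 29 named 57055 of the 60675 rows. Counts were fitted in edgeR 4.0.16 (R 4.3.3) with TMM factors, filterByExpr (minimum count 10) and the quasi-likelihood test over all 18009 genes kept, with Benjamini-Hochberg adjustment at 0.05. Strand was compared in a second fit scaled by the 12 heavy-strand mRNAs. DESeq2 1.42.0, limma 3.58.1 (voom), other scalings, filters, a replicate block and leaving out each library were alternatives. In data simulated for SC07 against SC01 (14019 genes), 94% of genes changed 1.5-fold were recovered and 58% of those changed 1.25-fold. Of the calls, 4.86% were false. The simulation gave all genes 1 spread, held only genes above 1 CPM in SC01 and changed few of them. It thus does not describe thinly covered members such as most tRNAs. Libraries of 1 clone differed by 2.47 to 10.5 times sampling noise (chi-square per degree of freedom), so none was counted as a repeat. Named were all 15 rRNAs and mRNAs, each tested tRNA, up to 4 called genes of each nuclear list with the largest change, the 6 highest copies and the 5 nearest genes. Some of these are given by count only. The members and lists were chosen with earlier results of these data known. Some genes that the rule for the nearest nuclear genes names are not reported here.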

Additional observations from a re-analysis of the deposited data

How the results depend on the processing

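Over every alternative, 23 of 26 members called in SC07 against SC01 kept their call (lost at least once: MT-TH, MT-ND5 and MT-TT), 29 of 31 in SC10 against SC01 (MT-TS2 and MT-TL2) and 12 of 17 in SC10 against SC07 (MT-RNR2, MT-TM, MT-CO1, MT-TD and MT-ND4). On the scale of the heavy-strand mRNAs these counts were 10 of 13 (MT-CO1, MT-CO3 and MT-CYB), 12 of 15 (MT-ND6, MT-CO1 and MT-TH) and 5 of 12 (MT-RNR1, MT-TQ, MT-TY, MT-CO2, MT-ATP8, MT-ND3 and MT-CYB). The totals include MT-TM, MT-TA, MT-TD and MT-TT where called, although their calls were set apart above. Of all genes, 31.5%, 33.5% and 24.8% were called higher on the first scale. On the second, 11.0%, 10.8% and 15.4% were called higher and 66.3%, 71.4% and 39.6% lower. The cause of each lost call was not tested. Leaving out 1 library gave 12 to 13, 13 to 13 and 6 to 9 mRNAs higher in the 3 comparisons, 11 to 13, 14 to 18 and 6 to 9 tRNAs, and 0 to 1 rRNAs higher in SC10 against SC07. That rRNA count was also 0 with no filter on low counts and with each pair fitted alone. MT-ND6 relative to the heavy-strand mRNAs ranged from 0.057 to 0.25, 0.21 to 0.38 and 0.054 to 0.22 when 1 library was left out, and with MT-ND5 and MT-CYB as the denominator it stood at -0.0065 in SC07 against SC01 (0.15 with all 12) and was called at 0.30 in SC10 against SC07. With that denominator the SC10 against SC07 values of MT-RNR1 and MT-ND3 turned to 0.032 and 0.010. MT-TS1 in SC10 against SC07 ranged from -1.26 to 0.95, and from -1.44 to 0.80 on the relative scale, when 1 library was left out, with the highest values without SC07 replicate 1. Of protein-coding counts, mRNAs took 6.61%, 8.95% and 10.02% in SC01, SC07 and SC10. Set against the same protein-coding total, which holds no rRNA or tRNA counts, rRNA counts came to 0.551%, 1.03% and 1.10%, and tRNA counts to 0.0349% in SC10. Weighted per kb, the rRNA to mRNA ratios were 0.0504, 0.0686 and 0.0646, the light to heavy mRNA ratios 0.00742, 0.00823 and 0.00891, and the light to heavy tRNA ratio in SC10 was 2.26. Same-numbered libraries of different clones showed little shared deviation (9 correlations from -0.0195 to 0.0429), so the numbers were not used to pair them. These correlations give each gene the same weight, thinly counted genes included, and cannot exclude a batch shared by number. With a replicate block, 13, 13 and 7 mRNAs and 11, 14 and 7 tRNAs were higher, and MT-ND6 in SC10 against SC01 stood at 0.28 (edgeR adjusted p = 0.0804). Of the 22 tRNAs, 7 were untested or below the filter level in some libraries.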
